A study of Homo sapiens with 8 samples.

Results

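The genes of the proteasome were followed through RNA sequencing of 2 human liver cancer cell lines, HepG2 and Huh7, in their parental form (WT, labelled control) and in a form made resistant to sorafenib by culture in stepwise rising concentrations of the drug (SR, labelled sorafenib). Sorafenib is a multikinase inhibitor given in hepatocellular carcinoma. There were 8 poly(A)-selected libraries in 4 groups, with 2 libraries for each line and form, and the labels gave all of them the same batch. The sources did not say whether the 2 libraries of a group came from separate cultures, so p-values measure only the spread between these libraries. The genes were the 50 protein-coding genes, of 63241 genes in the files, whose symbol begins with PSMA, PSMB, PSMC, PSMD, PSME, PSMF or PSMG; 47 of them reached an FPKM (fragments scaled by transcript length and library size) of at least 1 in at least 2 libraries and were tested.

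The proteasome degrades proteins that carry a ubiquitin chain. Its core particle is a barrel of stacked rings, with outer rings of alpha subunits (PSMA genes) that gate the entrance and inner rings of beta subunits (PSMB genes) that hold the proteolytic sites. A cap sits on the barrel: its base holds a ring of ATPases (PSMC genes) that unfold the substrate, and its lid and ubiquitin receptors (PSMD genes) bind the chain and cut it off. Under interferon, cells replace the catalytic beta subunits with PSMB8, PSMB9 and PSMB10 to form the immunoproteasome, which generates peptides for antigen presentation. Assembly chaperones (PSMG genes, PSMD5, PSMD9 and PSMD10) help build the particle and are not part of the finished enzyme, while the PSME activators and the inhibitor PSMF1 bind the ends of the barrel. The set was split into 14 core, 17 cap, 3 immunoproteasome, 7 assembly and 5 activator or inhibitor genes. PSMA8 and PSMB11, subunits of testis and thymus, were listed at or near 0 in every library. PSMC3IP, a meiotic recombination factor, and PSME3IP1, a partner of PSME3, share only the name and were kept apart.

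The libraries did not sort by their labels. Across the 15173 genes tested, 5 libraries were alike (both HepG2 WT libraries, HepG2 SR replicate 1 and replicate 2 of both Huh7 groups; Pearson r of log2 values at least 0.914 within a set of like libraries). Huh7 WT replicate 1 resembled Huh7 SR replicate 1, and HepG2 SR replicate 2 resembled no other library; r was at most 0.846 between the 3 sets. Replicates of parental HepG2 correlated at 0.960, of resistant HepG2 at 0.819, of parental Huh7 at 0.754 and of resistant Huh7 at 0.760. At least 9 of the 10 hepatocyte markers reached 1 FPKM in every library. ALB (albumin) ran from 11.98 FPKM in Huh7 WT replicate 1 to 4713 FPKM in HepG2 SR replicate 2. The sum of the 10 markers ran from 734 to 8065 FPKM. Not every marker followed ALB: FGB, a fibrinogen gene, was highest in Huh7 WT replicate 1, at 380 FPKM. FGB was at 128 to 380 FPKM in the 3 libraries outside the 5 like ones and at 0.386 to 4.51 FPKM in those 5. AFP (alpha-fetoprotein) was at 1100 FPKM in HepG2 SR replicate 2. It was at 2.30 to 35.8 FPKM in the 5 like libraries and at 1.07 and 2.55 FPKM in replicate 1 of Huh7 WT and Huh7 SR. KRT19, a keratin of bile duct and progenitor cells, lay between 155 and 760 FPKM in the 5 like libraries and between 0.179 and 2.37 FPKM in the other 3. Among markers of other cell types, DCN (fibroblasts), PTPRC and CD3E (leukocytes) and KDR (endothelium) were at or near 0 throughout. Yet 2 of 6 fibroblast, 4 of 6 immune and 1 of 4 endothelial markers passed the filter. COL1A2 (fibroblasts) was at 8.28 FPKM in HepG2 SR replicate 2, and PDGFRB (fibroblasts) reached 3.12 FPKM in HepG2 WT replicate 2. PECAM1 (endothelium) reached 4.28 FPKM in Huh7 WT replicate 1. On the immune list, CD14 reached 6.27 FPKM in HepG2 SR replicate 2. CD68 was at 3.94 to 29.1 FPKM, and LYZ, a lysozyme gene, at 44.2 to 1058 FPKM. Huh7 WT replicate 2 and Huh7 SR replicate 2 thus went with the HepG2 libraries and HepG2 SR replicate 2 with none, so these 3 may not carry the right labels; this was not tested, names of libraries and groups are those of the labels, and each SR against WT or line value depends on them. The part of these differences in the results was not tested either. The comparisons are given with and without the 3 libraries that stood apart, HepG2 SR replicate 2 and replicate 1 of both Huh7 groups. Without them HepG2 SR, Huh7 WT and Huh7 SR have 1 library each. The spread then comes from the 2 HepG2 WT libraries alone (1 degree of freedom), so a call there compares single libraries that are assumed to vary like HepG2 WT. The 2 Huh7 libraries kept there, replicate 2 of each group, are among the 3 that may not carry the right labels. Huh7 and line values in the 5 like libraries thus rest on those labels. Shares of all tested genes called are given for the fit to all 8 libraries. None is given for fits that leave out libraries, so counts called there cannot be set against a background. In bulk RNA, fewer cells of a type and less RNA per cell cannot be told apart.

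Proteasome genes were abundant in all 8 libraries. Of the 47 tested, 45 had a median FPKM above that of the tested genes (6.80), and 24 lay above the 90th percentile (40.01). FPKM is already divided by transcript length, so levels can be set side by side: core genes had median levels from 27.7 FPKM (PSMB2) to 203 FPKM (PSMA7), cap genes from 21.2 FPKM (PSMC1) to 180 FPKM (PSMD2), activators and inhibitor from 30.3 FPKM (PSME4) to 63.6 FPKM (PSME1), and assembly chaperones from 9.80 FPKM (PSMG4) to 35.6 FPKM (PSMG1). Subunits of the core enter the particle in equal numbers, as do those of the cap, whereas the medians of their RNAs spanned 7.34-fold within the core and 8.48-fold within the cap. Together the tested genes made up between 0.493% (Huh7 SR replicate 2) and 0.910% (HepG2 SR replicate 2) of a library's summed FPKM.

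Individual genes differed widely in how much they varied. For the 46 genes with at least 1 FPKM in every library, the ratio of the highest to the lowest library had a median of 2.73, against 2.85 for the 10206 genes of the files that met the same condition. The steadiest were PSMC6, a base ATPase (34.6 to 51.9 FPKM, a ratio of 1.499), the lid subunit PSMD6 (ratio 1.60), the chaperone PSMD10, also known as gankyrin (1.62), the ubiquitin receptor PSMD4 (1.63) and the alpha subunit PSMA3 (1.70). The most variable were the base ATPase PSMC4 (17.1 to 122 FPKM, a ratio of 7.16), PSME1 (5.43), the chaperone PSMD5 (5.14), the base scaffold PSMD2 (4.94) and PSMA2 (4.75). The heat map of all tested genes shows that much of this variation was shared within a library.

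**Figure D1:**
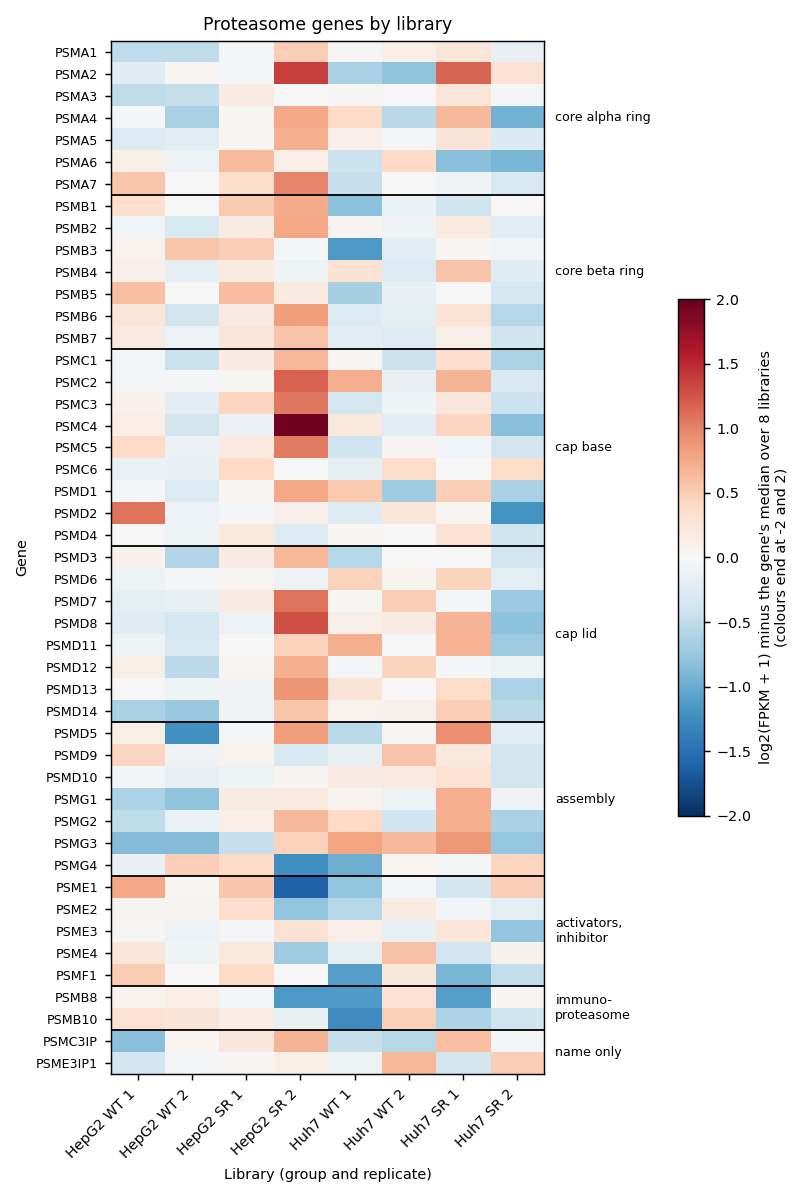
Rows are the 47 tested genes grouped by role and columns are the 8 libraries; colour gives log2(FPKM + 1) minus the gene's median over the libraries, and colours end at -2 and 2. HepG2 SR replicate 2 is the reddest column, with the highest value for 23 genes, while Huh7 SR replicate 2 holds the lowest value for 20 genes.

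The highest value of a gene fell most often in HepG2 SR replicate 2, and the lowest most often in Huh7 SR replicate 2. HepG2 SR replicate 2 was the highest of the 8 libraries for 23 of 47 genes (48.9%), against 17.9% of all tested genes; these were 9 of 14 core genes, 12 of 17 cap genes, PSME3 and PSMC3IP, and none of the 7 chaperones. The same library was the lowest for 5 genes, among them 3 of the 5 activator or inhibitor genes. Huh7 SR replicate 2 was the lowest library for 20 of 47 genes (42.6%), against 11.9% of all tested genes, and for 11 of 17 cap genes. Huh7 SR replicate 1 was the highest library for 5 of the 7 assembly chaperones. Members of a set share a library, so these counts describe libraries and not independent genes.

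The catalytic subunits were held by the constitutive forms. PSMB5, which carries the chymotrypsin-like site (ENSG00000100804, GRCh38 chr14:23016543-23035230, minus strand), measured 186 and 123 FPKM in parental HepG2, 189 and 139 FPKM in resistant HepG2, 77.4 and 110 FPKM in parental Huh7, and 123 and 95.5 FPKM in resistant Huh7. Its immunoproteasome counterpart PSMB8 (ENSG00000204264, chr6:32840717-32844703, minus strand) measured 1.34 and 1.44 FPKM in parental HepG2, 1.195 and 0.00472 FPKM in resistant HepG2, 0.0250 and 1.73 FPKM in parental Huh7, and 0.0464 and 1.28 FPKM in resistant Huh7. PSMB8 was thus at 1.195 to 1.73 FPKM in the 5 like libraries and near 0 in the 3 that stood apart, WT or SR.

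PSMB9 lies beside PSMB8 on the opposite strand (ENSG00000240065, chr6:32844136-32859585, plus strand) and is the counterpart of PSMB6, the subunit of the caspase-like site. It did not pass the filter: it measured 0.354 and 0.559 FPKM in parental HepG2, 0.406 and 0.00550 FPKM in resistant HepG2, 0.134 and 1.04 FPKM in parental Huh7, and 0.0208 and 0.317 FPKM in resistant Huh7. As for PSMB8, all 5 like libraries lay above the other 3. PSMB6 itself was between 58.2 and 157 FPKM in all libraries. PSMB8 and PSMB9 overlap in their annotated spans on opposite strands, and since the strand setting of the counting was not given in the sources used here, reads in the shared span cannot be told apart.

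PSMB10 was the most abundant of the 3 immunoproteasome subunits and the counterpart of PSMB7, the subunit of the trypsin-like site. It measured 9.02 and 8.72 FPKM in parental HepG2, 8.003 and 6.39 FPKM in resistant HepG2, 2.43 and 10.4 FPKM in parental Huh7, and 4.32 and 5.19 FPKM in resistant Huh7. The highest and the lowest value of the series were thus the 2 libraries of one group, Huh7 WT. PSMB7 lay between 74.8 and 148 FPKM. Of the 1853 exonic bases of PSMB10, 644 are shared with an unnamed protein-coding gene of the same strand, ENSG00000261884. That gene was at 0.465 to 2.41 FPKM. How reads common to both were divided was not given, and the PSMB10 value is uncertain to that extent.

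Summed over the 6 catalytic genes, the immunoproteasome forms supplied 2.595% and 3.66% of the FPKM in parental HepG2, 2.31% and 1.42% in resistant HepG2, 1.09% and 4.65% in parental Huh7, and 1.29% and 2.89% in resistant Huh7. SR and WT libraries overlapped in Huh7; in HepG2 both SR values were below both WT values. The 3 lowest shares were those of the 3 libraries that stood apart. PSMB10 enters each of these sums, so the shares carry the uncertainty of its shared reads. Without HepG2 SR replicate 2, the remaining HepG2 SR library differed from the nearer HepG2 WT library by less than the HepG2 WT libraries differed from each other.

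**Figure D2:**
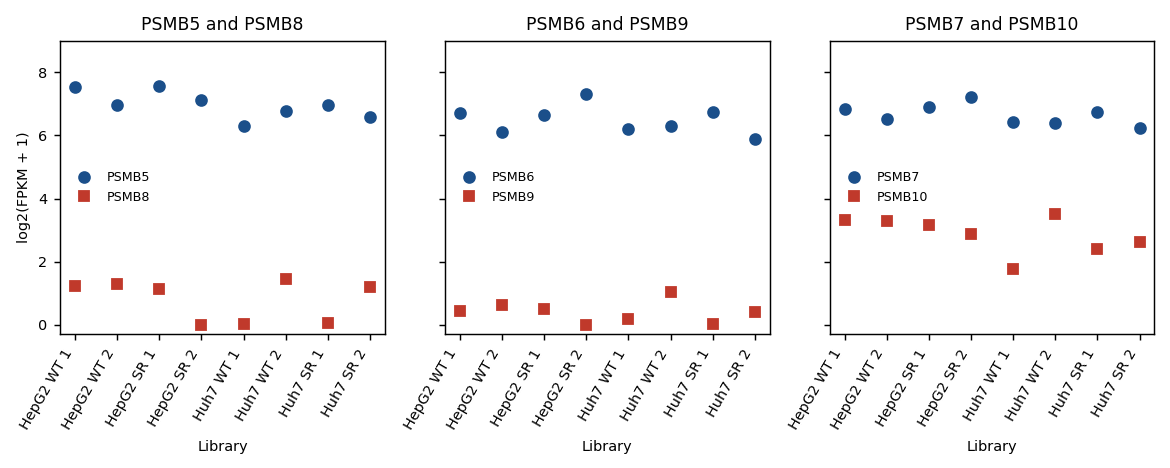
Each panel sets a constitutive catalytic subunit (blue circles) beside its immunoproteasome counterpart (red squares) in the 8 libraries, as log2(FPKM + 1). PSMB5, PSMB6 and PSMB7 lie far above PSMB8, PSMB9 and PSMB10 in every library, and PSMB8 is near 0 in HepG2 SR replicate 2 and in replicate 1 of both Huh7 groups.

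The same 3 libraries were low in other genes of the interferon and antigen presentation list, which held 23 genes, 20 of them tested. NLRC5, the transactivator of class I antigen presentation genes, was at 3.46 to 6.13 FPKM in the 5 like libraries and at 0.0613 to 0.371 FPKM in the other 3; this gene was chosen after its values were seen. TAP1, a subunit of the peptide transporter whose gene is a neighbour of PSMB9, was at 0.907 to 2.89 FPKM in the 5 libraries and at 0.0661 to 1.13 FPKM in the other 3, so those sets overlapped. In HepG2 SR replicate 2, 12 of the 23 genes reached 1 FPKM, against 17 to 22 in the other libraries. The list as a whole did not follow PSMB8, since its summed level was highest, at 745 FPKM, in Huh7 WT replicate 1. Between all SR and all WT libraries, 1 of the 20 tested genes was called, against 3.93% of all tested genes: UBE2L6, the conjugating enzyme for ISG15, was lower in SR (log2 -0.75, SE 0.27, limma adjusted p = 0.998). Its call was lost in the 5 like libraries (log2 -0.53) and on leaving out HepG2 WT replicate 2, HepG2 SR replicate 2, Huh7 WT replicate 2 or Huh7 SR replicate 1. None was called within a line; leaving out HepG2 SR replicate 1 gave 7 calls in HepG2, leaving out Huh7 WT replicate 1, Huh7 WT replicate 2 or Huh7 SR replicate 2 gave 3, 4 and 1 in Huh7, and the 5 like libraries gave 1 and 2. The median log2 difference of the list was -0.60 in HepG2 and -0.29 in Huh7, against -0.03 and -0.05 over all tested genes; in the 5 like libraries it was -0.10 and -0.03, and without Huh7 WT replicate 1 or Huh7 WT replicate 2 that of Huh7 was -0.17 or -0.60.

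Promoters of 4 interferon-responsive genes are shown because their windows hold an element through which interferon is known to act on genes. Windows from 250 bases before to 50 bases after the annotated start were searched for 44 of the 50 genes (RefSeq, GRCh38.p14). The core of the interferon-stimulated response element, on either strand, was found in 7 of the 44 genes (15.9%: PSMA4, PSMB4, PSMB8, PSMB10, PSME1, PSME2 and PSMG4) and in 4.38% of the 27305 genes with a window. The 80-base stretches around it are printed 5′ to 3′ along the gene for 4 of them, with the 10 bases of the match in capitals.
PSMB8 (chr6:32844007-32844086, minus strand): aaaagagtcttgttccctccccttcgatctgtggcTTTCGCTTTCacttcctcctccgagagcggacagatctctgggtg
PSMB10 (chr16:67936827-67936906, minus strand): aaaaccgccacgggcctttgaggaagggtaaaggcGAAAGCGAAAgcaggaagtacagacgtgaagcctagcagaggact
PSME1 (chr14:24136164-24136243, plus strand): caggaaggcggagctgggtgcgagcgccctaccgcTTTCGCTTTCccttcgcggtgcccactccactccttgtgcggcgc
PSME2 (chr14:24146594-24146673, minus strand): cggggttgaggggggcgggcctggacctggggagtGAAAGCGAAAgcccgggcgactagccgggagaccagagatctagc

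Relative to the RefSeq start, the match began 4 bases before it in PSMB8, 21 in PSMB10 and 28 in PSME2. In PSME1 it began 6 bases after that start. The printed stretches lie inside the gene spans of the GENCODE annotation given in this report. The RefSeq starts used here thus differ from the ends of those spans. The window of PSMB9 did not hold this motif, nor did those of PSMB5 and of the 16 cap genes that had one. The core of the antioxidant response element, TGACNNNGC on either strand, was in 15 of 44 windows (34.1%) against 16.1% of all genes, among them those of PSMG1, PSMC4 and PSMD5. The CCAAT box was in 22 of 44 (50%) against 39.7%, and the gamma-activated site core, TTCNNNGAA, in 8 of 44 (18.2%) against 9.38%. A match of these letters is a description of the window and not a site of binding.

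PSME1 and PSME2, which together form the activator ring induced by interferon, are a pair of nearby genes on chromosome 14 (chr14:24136158-24138967, plus strand, and chr14:24143362-24147570, minus strand), and the lowest values of both were in HepG2 SR replicate 2 and Huh7 WT replicate 1. PSME1 measured 109 and 65.2 FPKM in parental HepG2, 93.1 and 20.1 FPKM in resistant HepG2, 36.3 and 62.05 FPKM in parental Huh7, and 49.1 and 90.3 FPKM in resistant Huh7. The 5 like libraries (62.05 to 109 FPKM) did not overlap the other 3 (20.1 to 49.1 FPKM). PSME2 measured 63.2 and 63.0 FPKM in parental HepG2, 77.7 and 34.7 FPKM in resistant HepG2, 40.7 and 69.0 FPKM in parental Huh7, and 58.3 and 53.0 FPKM in resistant Huh7. For PSME2 the sets overlapped, since the like library Huh7 SR replicate 2 lay below Huh7 SR replicate 1, which stood apart. Unlike PSMB8, both activator genes were well expressed in every library. PSME4, an activator of the nucleus, was also higher in all 5 like libraries, whereas PSME3, the nuclear activator that forms its own ring, was lower in them (33.9 to 60.5 FPKM against 65.2 to 74.0 FPKM).

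Over the tested genes, 3 lay higher in all 5 like libraries than in the other 3 (6.38%, against 16% of all tested genes) and 9 lay lower (19.1%, against 13.2%). The 3 were PSMB8, PSME1 and PSME4. PSMB8 reached 1 FPKM in the 5 like libraries alone, so it passed the filter only through them. PSMB9 was also higher in all 5 but did not pass the filter, so it is not counted. The 9 were the alpha subunits PSMA4 and PSMA5, the cap genes PSMC2, PSMC4, PSMD1, PSMD11 and PSMD13, PSME3 and the chaperone PSMG2. These sets of libraries were defined from the expression of all genes and are not groups of the study, so no test was made.

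The first comparison asked which proteasome genes differed between resistant and parental HepG2 cells. A single gene of 47 passed, the assembly chaperone PSMG1, which was higher in HepG2 SR; most core and cap genes had positive differences that did not pass. A call needed an unadjusted limma p under 0.05 and a log2 fold change of FPKM + 1 of at least 0.5 in size. By this rule 2.14% of all tested genes were called in HepG2 (0.877% higher). For fits with a library left out or with another setting no such share is given, so their counts have no background beside them. The share of proteasome genes called, 2.13%, was close to that background, and no gene of the files passed at an adjusted p under 0.05 (325 genes had an unadjusted p under 0.05).

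PSMG1 (ENSG00000183527, chr21:39174769-39183851, minus strand), which with PSMG2 starts the assembly of the alpha ring, measured 22.6 and 20.1 FPKM in HepG2 WT and 40.5 and 40.4 FPKM in HepG2 SR. Both SR libraries were above both WT libraries, including the SR library that resembled WT. The log2 fold change was 0.89 (SE 0.36, limma adjusted p = 0.956). Within the 5 like libraries it was 0.90, which was called but compares the single library HepG2 SR replicate 1 with HepG2 WT. The call was lost on leaving out any of the 4 HepG2 libraries, with a log2 fold change between 0.81 and 0.98, and on leaving out either Huh7 WT library, which changes only the spread. In Huh7, PSMG1 measured 37.2 and 32.8 FPKM in WT and 59.4 and 34.0 FPKM in SR, which overlapped (log2 0.36, SE 0.36).

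Of the 14 core genes, 13 had a positive log2 difference in HepG2 (median 0.52) and of the 17 cap genes 16 did (median 0.58), against a median of -0.03 over all tested genes. None of these 31 genes was called. The mean log2 level of the core genes was 6.23 ± 0.15 (SD, n = 2) in HepG2 WT and 6.68 ± 0.20 in HepG2 SR, and that of the cap genes 5.55 ± 0.21 and 6.07 ± 0.44. HepG2 SR replicate 2 supplied most of the cap difference: its cap mean was 0.98 above HepG2 WT replicate 2 on the log2 scale, while HepG2 SR replicate 1 was 0.06 above HepG2 WT replicate 1. For the core the same differences were 0.70 and 0.21. With HepG2 SR replicate 1 alone, which resembled the WT libraries, the difference from the WT mean was 0.32 for the core and 0.21 for the cap.

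PSMC4 gave the largest difference of HepG2, log2 1.03 (SE 0.73, limma adjusted p = 0.956), and it rested on 1 library. It measured 34.1 and 23.8 FPKM in HepG2 WT and 28.3 and 122 FPKM in HepG2 SR, so that 1 SR library lay between the WT libraries and the other far above. Without HepG2 SR replicate 1 the log2 difference was 2.06 and the gene was called, and without HepG2 SR replicate 2 it was -0.01. PSMD14, the lid enzyme that removes the ubiquitin chain, measured 48.6 and 45.2 FPKM in HepG2 WT and 72.5 and 112 FPKM in HepG2 SR (log2 0.93, SE 0.43), and the resistant libraries were again the higher ones. Leaving out HepG2 SR replicate 1 raised the number of genes called to 7 (PSMA1, PSMA2, PSMC3, PSMC4, PSMD7 and PSMD8 higher, PSME1 lower), and leaving out HepG2 SR replicate 2, either HepG2 WT library or either Huh7 WT library brought it to 0. Leaving out either Huh7 SR library gave 2, PSMD14 and PSMG1.

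PSMD2, the base subunit that docks ubiquitin shuttle factors, went the other way. It measured 383 and 166 FPKM in HepG2 WT and 174 and 193 FPKM in HepG2 SR, and its log2 difference of -0.46 (SE 0.56) rested on HepG2 WT replicate 1; without that library it was 0.15. The activators and inhibitor had 4 of 5 negative differences (median -0.28) and the tested immunoproteasome genes 2 of 2 (PSMB8 log2 -0.69, SE 0.66, and PSMB10 log2 -0.27, SE 0.57).

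**Figure D3:**
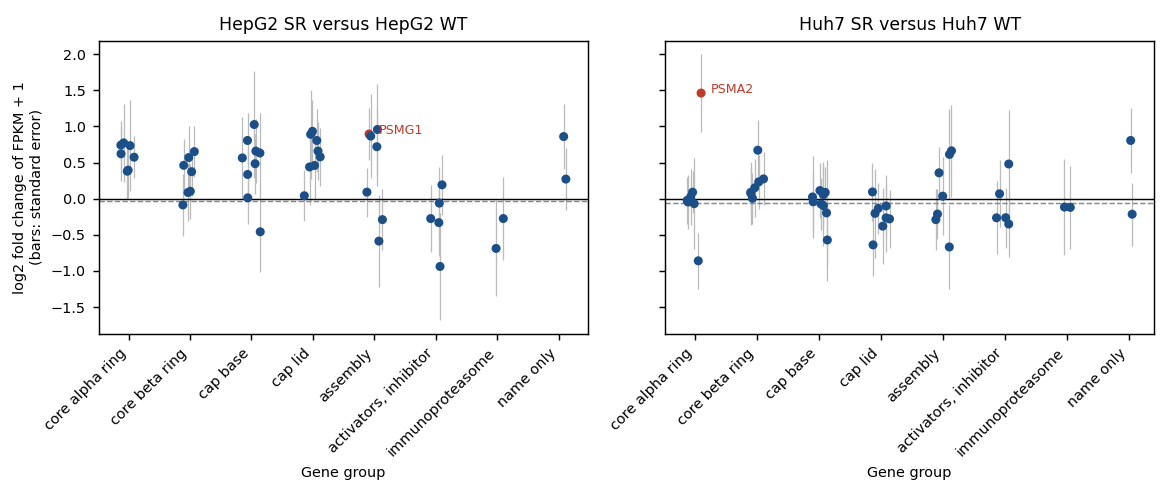
Each point is a tested gene, placed by role, with its log2 fold change of FPKM + 1 (SR minus WT) and its standard error as a bar; the dashed line is the median of all tested genes and red points are called. PSMG1 is the called gene in HepG2 and PSMA2 in Huh7, core and cap points lie mostly above 0 in HepG2, and most of the points of Huh7 lie around 0.

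In Huh7 the called gene was another, PSMA2, an alpha ring subunit, which was higher in Huh7 SR. It was 1 of 47 genes, 2.13%, against 1.87% of all tested genes (0.942% higher); at an adjusted p under 0.05, limma called no gene of the files, and 283 had an unadjusted p under 0.05. PSMA2 (ENSG00000106588, chr7:42916857-42932223, minus strand) measured 21.3 and 19.2 FPKM in Huh7 WT and 78.0 and 42.2 FPKM in Huh7 SR, so the resistant libraries were the higher ones (log2 1.46, SE 0.54, limma adjusted p = 0.99996). Within the 5 like libraries, Huh7 SR replicate 2 against Huh7 WT replicate 2 gave 1.10, which was called with the spread taken from the HepG2 WT libraries, and without Huh7 SR replicate 1 the log2 difference was 1.02, which was not called. Its call was also lost without Huh7 WT replicate 1, Huh7 WT replicate 2 or HepG2 WT replicate 2; without the last of these no gene was called, and without Huh7 WT replicate 1, Huh7 WT replicate 2 or Huh7 SR replicate 1 the 1 gene called was another (PSMA6, PSMB3 and PSMG3). In HepG2, PSMA2 measured 28.6 and 35.3 FPKM in WT and 33.1 and 91.0 FPKM in SR, which overlapped.

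The annotation places 781 of the 5336 exonic bases of PSMA2 inside an unnamed protein-coding gene of the same strand, ENSG00000256646. That gene was at 9.93 and 1.88 FPKM in Huh7 WT and 1.35 and 0.117 FPKM in Huh7 SR. It was thus lower in Huh7 SR where PSMA2 was higher. In HepG2 it went the other way, with 0.038 and 0.142 FPKM in WT and 8.61 and 20.6 FPKM in SR. Its highest value was in HepG2 SR replicate 2, as was that of PSMA2. The HepG2 values of PSMA2, and those over both lines, carry the same limit. How reads common to both were divided was not given in the sources used here, and the PSMA2 value is uncertain to that extent. Over the set, 22 genes shared exonic bases with another gene that reached 1 FPKM.

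The 2 Huh7 pairs of libraries with like replicate numbers pointed in opposite directions. In replicate 1, 38 of 47 genes were higher in SR than in WT (median log2 difference 0.26), including 13 of 14 core genes and 7 of 7 chaperones. In replicate 2, 9 of 47 were higher (median -0.33), including 1 of 17 cap genes. Over all tested genes the shares higher were 49.9% and 41.3%. Averaged, the genes had a median log2 difference of -0.04, against -0.05 for all tested genes. The mean log2 level of the core was 6.08 ± 0.08 (SD, n = 2) in Huh7 WT and 6.23 ± 0.34 in Huh7 SR, that of the cap 5.73 ± 0.04 and 5.58 ± 0.57, and that of the chaperones 4.28 ± 0.12 and 4.35 ± 0.58. In each case the Huh7 SR libraries lay on either side of both Huh7 WT libraries.

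**Figure D4:**
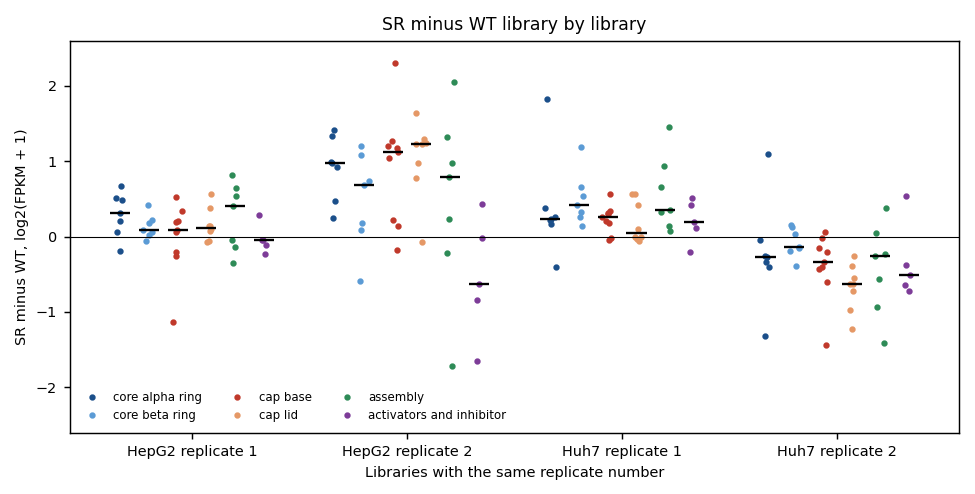
Points are genes, coloured by role, and bars their medians; the vertical axis is the SR minus the WT library of the same replicate number in log2(FPKM + 1). The median over the cap genes is 0.09 in HepG2 replicate 1, 1.18 in HepG2 replicate 2, 0.21 in Huh7 replicate 1 and -0.43 in Huh7 replicate 2.

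PSMA6, an alpha ring subunit, had the largest negative difference in Huh7, at log2 -0.86 (SE 0.39); it is named after its values were seen. It measured 90.6 and 162 FPKM in Huh7 WT and 68.2 and 64.4 FPKM in Huh7 SR. Of its 6506 exonic bases, 919 are shared with an unnamed protein-coding gene of the same strand, ENSG00000258790. That gene was at 11.2 and 20.6 FPKM in Huh7 WT and at 12.6 and 36.9 FPKM in Huh7 SR. How reads common to both were divided was not given, and the PSMA6 value is uncertain to that extent. Restricted to the 5 like libraries, where each Huh7 group has 1 library and the spread comes from the HepG2 WT libraries with 1 degree of freedom, limma called 5 genes in Huh7: PSMA2 higher, and PSMA6, PSMD7, PSMD8 and PSMG3 lower.

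Over both lines together, 3 genes were higher in SR than in WT and none lower. They were PSMA2 (log2 1.12, SE 0.38), PSMC3IP (log2 0.83, SE 0.32) and PSMG1 (log2 0.63, SE 0.25), each with an adjusted p of 0.998. The share called was 6.38%, against 3.93% of all tested genes (1.9% higher). Without PSMC3IP and PSME3IP1, which share only the name, it was 2 of 45 genes, 4.44%. At an adjusted p under 0.05 limma called 0 genes of the files (597 at an unadjusted p under 0.05). These values share their libraries with the comparisons within each line. PSMC3IP, which is not a subunit, measured 2.96 and 6.25 FPKM in parental HepG2, 7.30 and 10.4 FPKM in resistant HepG2, 4.08 and 3.74 FPKM in parental Huh7, and 9.69 and 5.88 FPKM in resistant Huh7. Of its 2573 exonic bases, 770 overlap MLX on the opposite strand, a gene at 18.4 to 35.6 FPKM, and reads of the pair cannot be told apart without strand.

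None of the 47 genes had all 4 SR libraries above or below all 4 WT libraries, against 3.68% of all tested genes. For PSMA2, PSMC3IP and PSMG1 the two-sided exact permutation test of 4 against 4 libraries gave p = 0.0571, where the smallest p it allows is 0.0286. Leaving out HepG2 SR replicate 2, Huh7 WT replicate 2 or Huh7 SR replicate 1 brought the number called to 0, as did restricting the fit to the 5 like libraries, and leaving out HepG2 WT replicate 1 or Huh7 WT replicate 1 brought it to 1. Without HepG2 WT replicate 1 the gene called was PSMD5 (log2 1.12), not PSMA2, PSMC3IP or PSMG1. Without Huh7 WT replicate 1 it was PSMA2 (log2 1.15). With the set of like libraries as a term in the fit, PSMA2 stood at log2 0.86, PSMC3IP at 0.71 and PSMG1 at 0.60, all still called. That fit had no term for the cell line, and HepG2 SR replicate 2, alone in its set, added nothing to these values.

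The test of whether the SR effect differed between the lines called 0 of 47 genes, against 0.606% of all tested genes; none of the 47 had an unadjusted p under 0.05. The difference, Huh7 minus HepG2, was negative for 17 of 17 cap genes (median -0.69) and for 10 of 14 core genes (median -0.43), against a median of -0.04 over all tested genes. PSMD7, a lid subunit named after its values were seen, came closest at log2 -1.44 (SE 0.61, limma adjusted p = 0.9998). Leaving out HepG2 SR replicate 1 gave 4 calls, leaving out Huh7 SR replicate 1 gave 3 and leaving out Huh7 WT replicate 1 gave 1. Within the 5 like libraries 5 genes were called (PSMA6, PSMD7, PSMD8, PSMD14 and PSMG3), all negative; there the comparison rests on 1 library each of HepG2 SR, Huh7 WT and Huh7 SR.

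**Figure D5:**
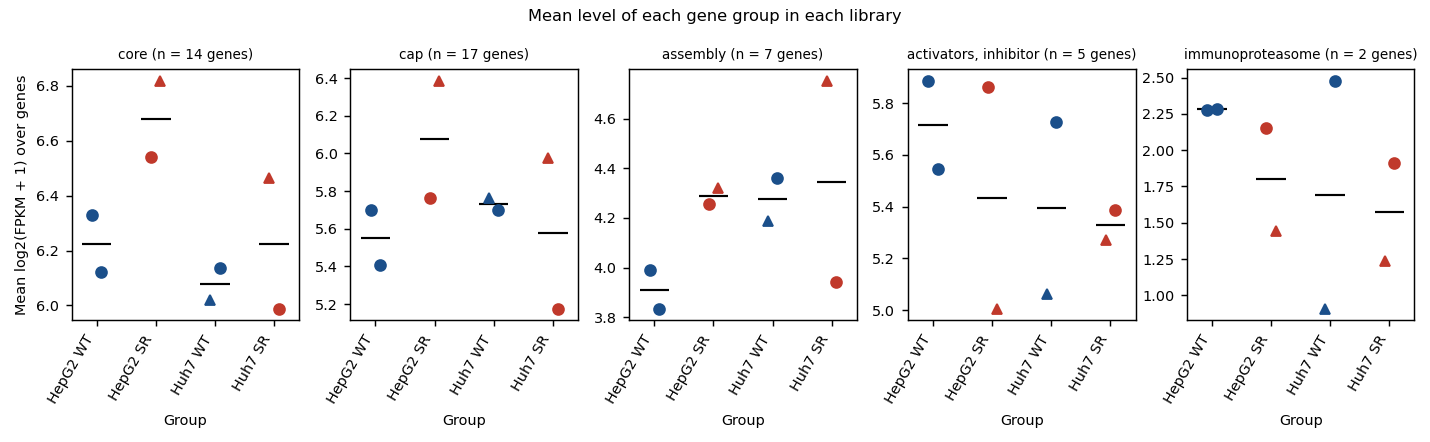
Each panel gives the mean log2(FPKM + 1) over the tested genes of a group in each library; blue is WT, red is SR, circles are the 5 like libraries, triangles the other 3, bars the group means of 2 libraries, and each panel has its own vertical axis. For the cap, HepG2 SR replicate 2 is highest at 6.39 and Huh7 SR replicate 2 lowest at 5.17, and for the immunoproteasome the 3 triangles are lowest.

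Between the lines, 3 core genes were lower in libraries labelled Huh7 than in those labelled HepG2, and they were named after their values were seen where the fixed list did not hold them: PSMB1, a non-catalytic beta subunit (log2 -0.74, SE 0.26), PSMA7 (log2 -0.68, SE 0.27) and PSMB5 (log2 -0.64, SE 0.27), each with an adjusted p of 0.813. That was 6.38% of the set, against 4.9% of all tested genes (2.87% lower). PSMB1 measured 79.3 to 141 FPKM in Huh7 and 141 to 237 FPKM in HepG2, with the lowest HepG2 library close to the highest Huh7 library. Since 2 Huh7 libraries resembled the HepG2 ones, the labels rather than the expression define this comparison, and within the 5 like libraries the gene called was PSMD1 instead. Leaving out HepG2 WT replicate 1, HepG2 SR replicate 2, Huh7 WT replicate 1 or Huh7 SR replicate 1 brought the number called to 0, and leaving out Huh7 WT replicate 2 raised it to 7. Of the 3 genes, PSMA7 alone was called with quantile normalization and PSMB1 alone without a trend in eBayes.

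The partner list held 30 genes that act on or beside the proteasome without belonging to the named families, and all 30 were tested. POMP, the maturation factor of the core, measured 58.6 and 47.8 FPKM in parental HepG2, 60.3 and 95.9 FPKM in resistant HepG2, 77.0 and 42.5 FPKM in parental Huh7, and 73.3 and 44.2 FPKM in resistant Huh7. NFE2L1, the transcription factor that raises proteasome genes when proteolysis fails, measured 50.3 and 60.9 FPKM in parental HepG2, 62.0 and 61.5 FPKM in resistant HepG2, 94.3 and 81.6 FPKM in parental Huh7, and 57.2 and 48.8 FPKM in resistant Huh7. Both Huh7 SR libraries were below both Huh7 WT libraries, and it was the 1 of 30 partners called in Huh7, against 1.87% of all tested genes (log2 -0.72, SE 0.30, limma adjusted p = 0.99996); none was called in HepG2 (3 when HepG2 SR replicate 1 was left out, 1 when HepG2 WT replicate 1 was) or over all SR against all WT. The call was lost on leaving out any 1 of the 8 libraries and in the 5 like libraries, where the log2 difference was -0.73. The median log2 difference of the partners was 0.26 in HepG2 and -0.22 in Huh7, and 0.22 and -0.51 in the 5 like libraries, where 1 and 4 other partners were called. Leaving out Huh7 SR replicate 2 turned that of Huh7 to 0.10, and it was -0.04 if Huh7 WT replicate 2 was left out and -0.39 if Huh7 SR replicate 1 was. Between the lines 2 of 30 were called, against 4.9% of all tested genes: the cap-bound deubiquitinase UCHL5 was higher in Huh7 (log2 0.96, SE 0.40, limma adjusted p = 0.813) and the small lid subunit SEM1 was lower (log2 -0.63, SE 0.22, limma adjusted p = 0.813). In the 5 like libraries SEM1 was still called (log2 -0.71) and UCHL5 was not (log2 0.35). The call of UCHL5 was lost on leaving out any library other than Huh7 WT replicate 2 or Huh7 SR replicate 2, and that of SEM1 on leaving out HepG2 WT replicate 2, HepG2 SR replicate 2, Huh7 WT replicate 2 or either Huh7 SR library.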

How the data were processed

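Per the labels, total RNA of 8 libraries was poly(A)-selected and sequenced; the submitters' processing notes name fastp 0.20.0 and GRCh38, and the aligner, counter and annotation are not given in the sources used here. The authors deposited 1 table per library of FPKM values (fragments scaled by transcript length and library size) for 63241 Ensembl genes. FPKM is no count, so the count-based test of the study's methods was replaced by limma 3.58.1 (R 4.3.3; lmFit and eBayes with trend) on log2(FPKM + 1), which understates changes of low genes, over the 15173 genes that reached 1 FPKM in 2 or more libraries. The fit had 4 group means and 4 residual degrees of freedom, and Benjamini-Hochberg adjustment ran over all tested genes. Sequencing depth is unknown: among genes below 0.05 FPKM in both of 2 libraries, the most repeated ratio was shared by 7 to 14 of 1443 to 2016 genes, too few to give relative depth. Symbols paired with 99.1% of IDs, with GENCODE 29 positions and biotypes and RefSeq promoters; 44 pseudogene IDs were left out. No column was unassigned. The fit was tested on simulated data.

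Genes named were those called between SR and WT, the catalytic subunits, PSMA2, PSMD14, PSME1 and PSME2, the 5 with the largest and the 5 with the smallest ratio of highest to lowest library, and in the partner lists the called genes, POMP, NFE2L1 and TAP1. Genes and lists were chosen with earlier results of these data known. Alternatives were another pseudocount, filter, scaling and variance model, the replicate number as a block, separate fits per line, each library left out and, chosen after seeing the data, only the 5 like libraries.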

Additional observations from a re-analysis of the deposited data

Results flagged for a closer look

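In sets of 4 libraries (all WT or all SR), the gap between an extreme library and its nearest neighbour, as a share of the whole range on the log2(FPKM + 1) scale, was set against Dixon's critical value at the 95% level. It was exceeded in 5 of 46 sets examined at both ends, and chance alone flags about 1 in 20. Huh7 WT replicate 1 stood below the other WT libraries in PSMB8 (0.843), in PSMB10 (0.870) and in the mean level of the immunoproteasome genes (0.872), which are not independent of each other. Huh7 SR replicate 2 stood below the other SR libraries in PSMD2 (0.890), at 77.7 FPKM against 174 to 193 FPKM. Huh7 WT replicate 2 stood above the other WT libraries in PSMC6 (0.930), at 51.1 FPKM against 34.6 to 35.6 FPKM.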

How the results depend on the processing

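Depth was unknown, and 2 libraries per group with 4 residual degrees of freedom limited every comparison: of the 5 counts of called genes, none was above 0 at an adjusted p under 0.05. The same replicate number did not pair libraries by the labels. Deviations of like-numbered libraries from their group means correlated at 0.12 between HepG2 WT and SR and 0.80 between Huh7 WT and SR, with 2 pairs each. With the replicate number as a block (2 residual degrees of freedom) the count of called genes was 1 in HepG2, 1 in Huh7, 3 over all SR against all WT, 0 for the difference between lines' SR effects, and 1 in place of 3 for Huh7 against HepG2, where PSMB1 was still called and PSMA7 and PSMB5 were not; in the lists it replaced NFE2L1 by ZFAND2A in Huh7 and raised the interferon genes called from 0 to 2 in HepG2 and from 0 to 4 in Huh7, all lower. Rescaling to a common sum raised the median log2 level of all tested genes in every library. It went from 2.80 to 3.89 in HepG2 SR replicate 2 and from 2.91 to 4.03 in Huh7 SR replicate 2. In the other 6 it went from 2.95 to 3.05 up to 4.12 to 4.25. The summed FPKM was 384792 and 396118 in HepG2 WT and 411763 and 429111 in HepG2 SR. In Huh7 it was 385498 and 403905 in WT and 415772 and 424869 in SR. Dividing by these sums lowers SR values relative to WT values. How far this enters the changes below was not tested, nor was any other cause.

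In HepG2 the count of 1 became 3 with no filter (PSMA1, PSMA3 and PSMG1), 2 in separate fits per line, and 0 with the common sum or without a trend in eBayes; leaving out a library gave 0 to 7. In Huh7 the count of 1 became 0 with no filter, 2 with the common sum or quantile normalization, and 5 in the 5 like libraries; leaving out a library gave 0 to 1. For all SR against all WT the 3 became 0 in the 5 like libraries, and 0 to 4 on leaving out a library. For Huh7 against HepG2 the 3 became 1 with quantile normalization, without trend and in the 5 like libraries, and 0 to 7 on leaving out a library. For the difference of SR effects the 0 became 1 with the lower filter and 5 in the 5 like libraries, and 0 to 4 on leaving out a library. Of the mean log2 levels, SR minus WT, the immunoproteasome in HepG2 was -1.16 with a pseudocount of 0.1 and the assembly genes in HepG2 0.28 with the common sum; in the 5 like libraries the core in Huh7 was -0.15 and the assembly genes in Huh7 -0.42.

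Of 33 results for a single gene whose direction turned, none was called as reported, with limma p of at least 0.206. With the common sum, log2 differences in HepG2 became -0.0036 for PSMB5, -0.064 for PSMD6, -0.012 for PSMD10 and -0.094 for PSMD4, and in Huh7 -0.018 for PSMB6, -0.0034 for PSMB7, -0.022 for PSME2, -0.0021 for PSMC6 and -0.00070 for PSMA3. With quantile normalization they became, in HepG2, -0.079 for PSMB5, -0.034 for PSMD6 and -0.14 for PSMD4. With the set of like libraries as a term, over all SR against all WT, they were 0.31 for PSME1, 0.14 for PSME2, -0.17 for PSMC4 and 0.028 for PSMD4. In the 5 like libraries they were 0.14 for PSME1, 0.30 for PSME2 and -0.010 for PSMC4 in HepG2; -0.20 for PSMB5, -0.40 for PSMB6, -0.15 for PSMB7, -0.37 for PSME2, -0.24 for PSMD5, -0.014 for PSMC6 and -0.040 for PSMA3 in Huh7; and -0.079 for PSMB6, 0.34 for PSME1, -0.0013 for PSMD14 and -0.30 for PSMC4 over both. Leaving out a library turned 39 of 456 single-gene values, and other alternatives 30 of 513. Over the 8 fits that each left out a library, the log2 difference of those that turned ranged in HepG2 from -0.20 to 0.40 for PSMB5, -0.010 to 2.06 for PSMC4, -1.06 to 0.15 for PSMD2, -0.23 to 0.25 for PSMD4, -0.035 to 0.12 for PSMD6, -2.02 to 0.14 for PSME1 and -0.85 to 0.30 for PSME2. In Huh7 the ranges were -0.052 to 0.23 for PSMA3, -0.98 to 0.74 for PSMB10, -0.016 to 0.48 for PSMB5, -0.35 to 0.50 for PSMB6, -0.17 to 0.34 for PSMB7, -0.82 to 0.59 for PSMB8, -0.82 to 0.43 for PSMC4, -0.19 to 0.36 for PSMC6, -0.55 to 0.12 for PSMD10, -0.62 to 0.42 for PSMD14, -1.19 to 0.052 for PSMD2, -0.42 to 0.28 for PSMD4, -0.46 to 0.19 for PSMD6, -0.31 to 0.44 for PSME2 and -0.036 to 0.75 for PSMG1. Over all SR against all WT they were -0.63 to 0.23 for PSMB10, -0.10 to 0.93 for PSMC4, -0.23 to 0.11 for PSMD10, -0.21 to 0.14 for PSMD4, -0.21 to 0.12 for PSMD6, -0.77 to 0.31 for PSME1 and -0.39 to 0.18 for PSME2.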
